A study of Bos taurus with 2 samples.

Results

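The known bovine miRNAs with a miRBase number of 2200 or above comprised 29 sequences. They came from 27 pre-miRNAs and were chosen by name from the 283 known bovine miRNAs listed in the mammary gland (MG), which stood among 884 unique listed miRNAs in all. The entries with both arms were mir-2313 and mir-2431, each listed with a 5p and a 3p sequence. The numbers ran from 2288 to 3596, and the nearest lower number among the known miRNAs was 1839. Just outside the rule, mir-1839-5p had 28 reads in lactation and 70 in non-lactation, and just inside it mir-2288-3p had 0 and 3. The families mir-2284 and mir-2285, which make up 191 of the 621 RefSeq miRNA genes of cattle with such numbers, had 0 members among the listed sequences.

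The data were small RNA reads from 2 MG tissue libraries of Holstein dairy cows, with 1 library per condition. The lactation library came from 1 multiparous cow aged 6 years that had been in milk for 2 months. The non-lactation library came from 1 multiparous cow aged 4 years that was neither lactating nor pregnant. Condition, cow, age and library cannot be told apart in this design, and there were no replicates, so no test between the conditions was possible.

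A miRNA is cut from a hairpin, the pre-miRNA, into a duplex of a 5p and a 3p strand, and usually a strand is kept by an Argonaute protein to guide it to messenger RNAs. Pairing rests mainly on the seed, bases 2 to 8 of the mature strand. miRBase gives numbers in the order in which miRNAs are registered, so old, widely shared miRNAs such as let-7 carry low numbers, while most bovine entries with high numbers were registered from cattle and often have no counterpart outside ruminants. An isomiR is a variant of a mature miRNA that differs mostly by a few bases at its ends. The listed reads are those of the most abundant sequence of each miRNA, unless all isomiRs are named.

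The sequences that the results below turn on are given 5′ to 3′ as listed by the study, with the seed in capitals. The first set holds the most abundant members, the members with both arms listed, and the member whose opposite arm was listed under a predicted name:
mir-2419-5p: aUCGCAUCaacacucgucuguu
mir-2484-3p: gAGCUAUGaugacuuugauugcau
mir-2387-5p: uGGAAGGCcuggcuuugcagcg
mir-2316-5p: aCUCCGGCcuggacugcggcg
mir-2313-5p: aGUGCAGCugaggaccaaggca
mir-2313-3p: cCAGUUCCacgcugcaugcca
mir-2431-5p: cAGGUCAUauaaguguggaguu
mir-2431-3p: cACCCCCAcuugcaugacccuga
mir-2300b-3p: gGGAGACAaaacuagcugagga
CN-193-5p: uUAGCUAGuuuugccucccugc

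The second set holds the members that nearly repeat the sequence of another listed miRNA, each followed by that miRNA:
mir-2288-3p: aAGGUAGUagguugugugguu
let-7b-5p: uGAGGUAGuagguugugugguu
mir-3596-5p: aGGUAGUAgguuguauaguua
let-7a-5p: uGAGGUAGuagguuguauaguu
mir-2481-5p: aGCUACGUugucugcuggguuu
mir-221-3p: aGCUACAUugucugcuggguuu
mir-2478-3p: gUAUCCCAcuucugacacca
CN-126-3p: aAUCCCACuccugacacca

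The members were rare in both libraries. Their summed reads over both libraries had a median of 7, against 466 for the other 254 known miRNAs. At most 10 summed reads were listed for 20 of the 29 members (69.0%) and for 25 of the other 254 known miRNAs (9.84%). In turn, members made up 20 of the 45 known miRNAs with at most 10 summed reads. At the upper end, 1 member (3.45%) reached 100 summed reads, against 187 (73.6%) of the others. The most abundant member, mir-2419-5p, ranked 151 among the 283 known miRNAs by summed reads.

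**Figure D1:**
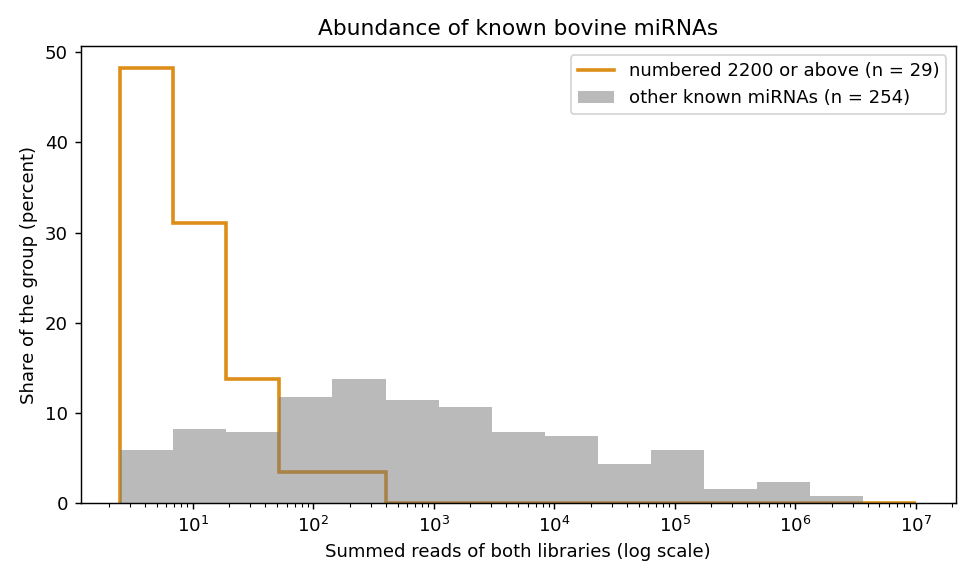
Share of each group (y axis, percent) by summed reads of both libraries (x axis, log scale) for the 29 members (line) and the other 254 known miRNAs (filled). The members crowd at the low end, with a median of 7 summed reads against 466.

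Depth set what could be seen of these sequences. The most abundant sequences of all 883 unique miRNAs with a value in both libraries summed to 5745936 reads in lactation and 7879028 in non-lactation. Scaled to clean reads, as RPM (reads of a sequence per 1e+06 clean reads), 1 read was worth 0.0836 for lactation and 0.0626 for non-lactation. The lowest value listed above 0 was 3 reads, so a listed 0 was treated as fewer than 3 reads and not as absence. Summed over the 29 members, lactation held 265 reads, or 22.1 RPM (exact 95% interval 19.6 to 24.98), and non-lactation held 273 reads, or 17.1 RPM (15.1 to 19.2). All intervals here cover counting error only. The ratio of the summed RPM, lactation over non-lactation, was 1.30 (exact 95% interval 1.09 to 1.54). It was 1.10 (0.872 to 1.38) without mir-2419-5p, and 1.08 (0.909 to 1.28) with edgeR TMM scaling, and both of those intervals held 1. Without mir-2419-5p and mir-2484-3p together it was 1.33 (1.03 to 1.72).

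Fewer of the members than of the other known miRNAs were listed in both libraries. Both libraries listed 13 members, lactation alone listed 9, and non-lactation alone listed 7. A sequence listed in 1 library only was thus found for 16 of 29 members, while the share over all 283 known miRNAs was 12.4% (35 miRNAs). Among the other known miRNAs, 19 of 254 (7.48%) were in 1 library only. Since the lowest listed value was 3 reads, a miRNA with fewer than 6 summed reads had to be in 1 library, which held for 12 members and 12 other known miRNAs. With 6 to 10 summed reads, 4 of 8 members and 4 of 13 other known miRNAs were in 1 library only. No member with a listed 0 exceeded 10 reads in the library that held it.

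**Figure D2:**
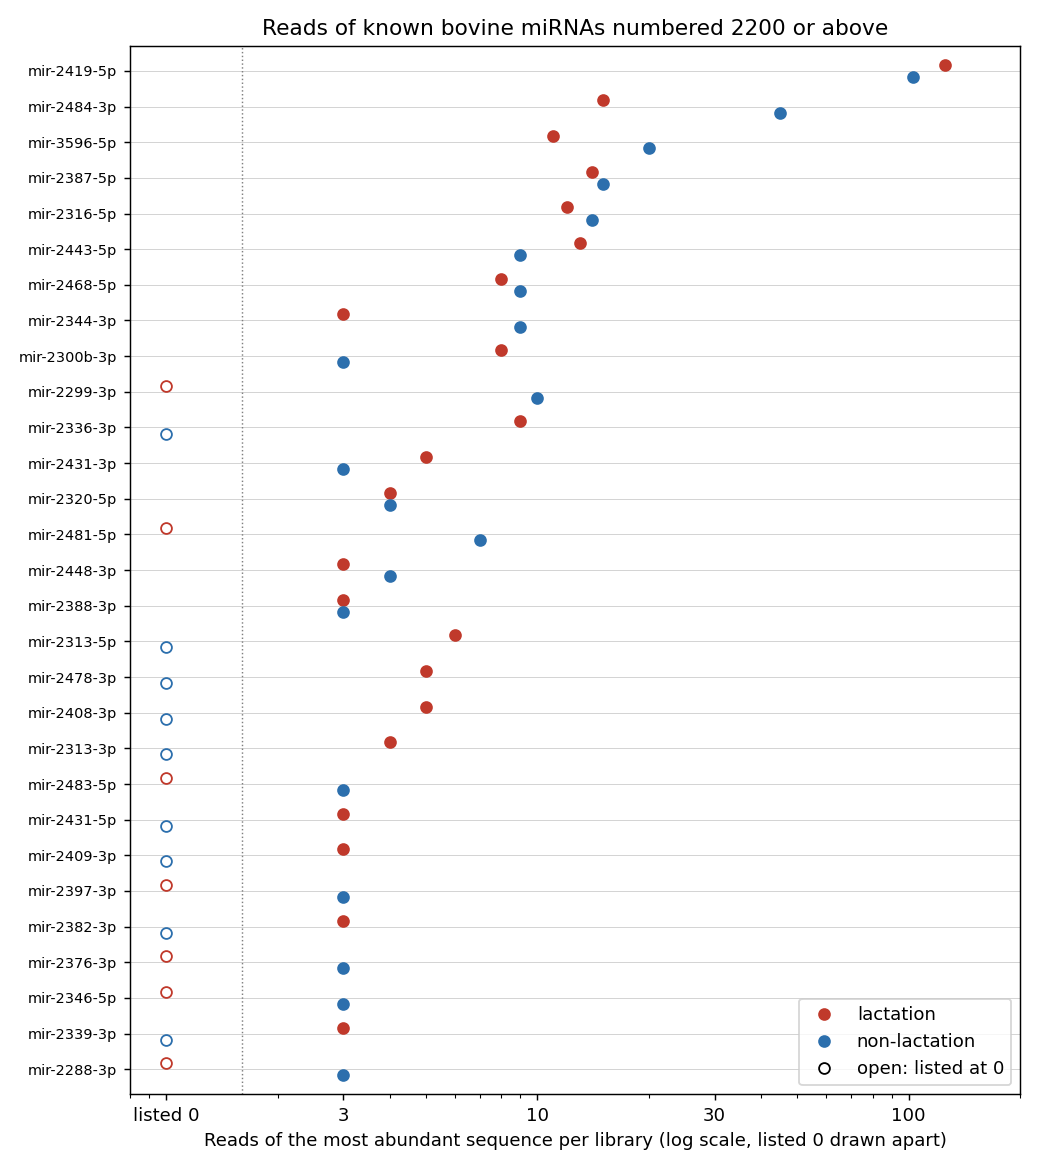
Reads of the most abundant sequence (x axis, log scale, with a listed 0 drawn apart as an open circle) for each of the 29 members (y axis) in the lactation and non-lactation libraries, 1 point per library. mir-2419-5p stands above all others with 125 and 103 reads, and 16 members have an open circle.

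The tissue markers of the libraries differed beside these values. Those of mammary epithelium (mir-200a, mir-200b, mir-200c, mir-141, mir-429 and mir-205, 6 of 6 listed) summed to 12385 RPM in lactation and 2596 RPM in non-lactation. The sum was carried by mir-200c-3p, at 8172 and 920 RPM, while mir-205-5p went the other way, at 184 and 693 RPM. Those of striated muscle (mir-1, mir-133a, mir-133b and mir-206, 4 of 4 listed) summed to 4480 and 696 RPM, nearly all of it mir-1-3p.
The remaining lists held sequences that moved in opposite directions. Those of blood cells (mir-451, mir-144, mir-223, mir-142 and mir-486, 5 of 5 listed) summed to 142 and 133 RPM. Within them mir-451-5p had 74.3 and 29.7 RPM and mir-486-5p 16.2 and 2.76, but mir-142-5p had 35.4 and 70.6, mir-142-3p 13.5 and 26.1, and mir-223-3p 2.01 and 4.20, with mir-144-3p at 3 and 0 reads. Those of stroma and smooth muscle (mir-199a, mir-199b, mir-214, mir-143 and mir-145, 5 of 5 listed) summed to 8640 and 14558 RPM. There mir-199a-3p had 2100 and 9968 RPM, whereas mir-143-3p had 2471 and 1050, and mir-145-5p had 4036 and 3436. The part of these shifts in the members' values was not tested, and fewer cells of a type cannot be told apart from less miRNA per cell in bulk tissue.

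Among the most abundant members, mir-2419-5p stood higher and mir-2484-3p lower in lactation. The pre-miRNA of mir-2419 lies on BTA 4.0 at chr4:68649829-68649904, minus strand. Its 5p sequence had 125 reads in lactation, 10.4 RPM (exact 95% interval 8.70 to 12.4), and 103 in non-lactation, 6.45 RPM (5.26 to 7.82). The ratio was 1.62 (1.24 to 2.12), and the RPM intervals of the libraries did not overlap. With edgeR TMM scaling the ratio was 1.35 (1.03 to 1.77), and with DESeq2 scaling 1.33 (1.02 to 1.75). With no scaling it was 1.21 (0.927 to 1.59), an interval that held 1. mir-2419-5p took 47.2% of all member reads in lactation (exact 95% interval 41.0 to 53.4) and 37.7% in non-lactation (32.0 to 43.8). In RefSeq annotation of the assembly ARS-UCD2.0 the gene MIR2419 overlaps no other gene and lies between NOD1, an intracellular sensor of bacterial peptidoglycan, and ZNRF2, a ubiquitin ligase.

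mir-2484-3p had the opposite order. Its pre-miRNA lies on BTA 4.0 at chrX:10305961-10306036, minus strand. It had 15 reads in lactation, 1.25 RPM (0.702 to 2.07), and 45 in non-lactation, 2.82 RPM (2.06 to 3.77). The level in lactation was 2.25-fold lower (exact 95% interval 1.23 to 4.34). These were the 2 of 12 members with a ratio whose interval left out 1, whereas over all listed miRNAs with a ratio that share was 54.4%.

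With at least 20 summed reads, 6 members could be compared by size of fold. Of these, 0 were at least 2-fold higher in lactation, while 29.7% of the 421 miRNAs with that many reads were. By contrast 1, mir-2484-3p, was at least 2-fold lower, where the share over the 421 was 20%. The median log2 ratio was 0.26 over the 6 members and 0.21 over the 395 listed miRNAs with at least 20 reads and reads in both libraries.

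For the other members that reached 20 summed reads, the libraries differed by less than the counting error. mir-2387-5p (hairpin at chr25:35000092-35000169, minus strand) had 14 reads in lactation and 15 in non-lactation, a ratio of 1.25 (0.557 to 2.77). mir-2316-5p (chr15:45749056-45749130, plus strand) had 12 and 14 reads, a ratio of 1.14 (0.483 to 2.66). mir-2443-5p had 13 and 9 reads, a ratio of 1.93 (0.762 to 5.11). All these intervals held 1, and each also held a 2-fold difference. mir-3596-5p, with 11 and 20 reads, is described below with let-7. The next members had fewer reads still. mir-2468-5p had 8 and 9 reads, a ratio of 1.19 (0.398 to 3.46), and mir-2344-3p had 3 and 9, a ratio of 0.445 (0.0775 to 1.78). In mir-2431-3p, 5 and 3 reads gave a ratio of 2.22 (0.433 to 14.3).
Reads as few as these gave ratios that no order could be read from. mir-2320-5p had 4 reads in each library, a ratio of 1.33 (0.249 to 7.17), and mir-2448-3p had 3 and 4, a ratio of 1.00 (0.147 to 5.92). mir-2388-3p had 3 reads in each library and was given no ratio.

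**Figure D3:**
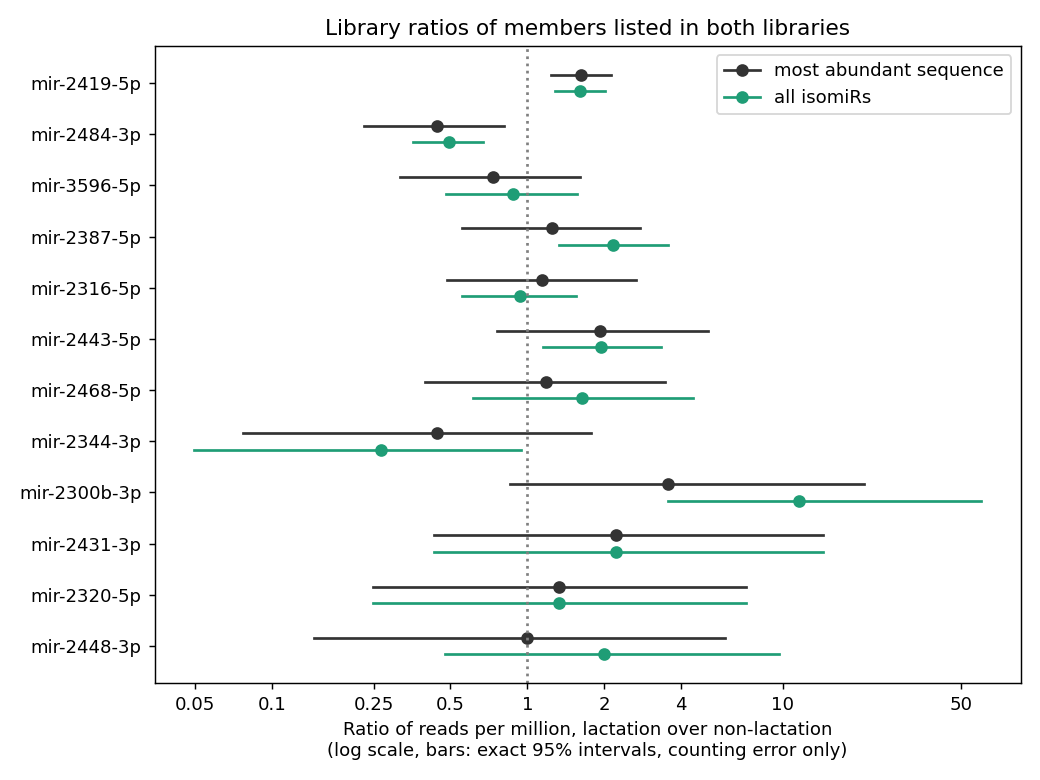
Ratio of RPM, lactation over non-lactation (x axis, log scale), for the 12 members with a ratio (y axis, most abundant at the top), with exact 95% intervals for the most abundant sequence and for all isomiRs. The bars narrow with read number, and for the most abundant sequence those of mir-2419-5p, at 1.62, and mir-2484-3p, at 0.445, leave out 1.

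In 7 members the library with no listed read could be set at its limit of 3 reads. In lactation alone were mir-2336-3p with 9 reads, mir-2313-5p with 6, mir-2408-3p and mir-2478-3p with 5 each, and mir-2313-3p with 4. Their RPM was at least 4.004-fold higher than in non-lactation for mir-2336-3p, at least 2.67-fold for mir-2313-5p, at least 2.22-fold for mir-2408-3p and mir-2478-3p, and at least 1.78-fold for mir-2313-3p. In non-lactation alone were mir-2299-3p with 10 reads and mir-2481-5p with 7, at least 2.498-fold and at least 1.75-fold lower in lactation. These limits leave out counting error, so the folds may be smaller. Each of the 7 was listed through 1 library alone, which fixed its direction in advance. The other 9 members found in 1 library had 3 reads there. These were mir-2339-3p, mir-2382-3p, mir-2409-3p and mir-2431-5p in lactation, and mir-2288-3p, mir-2346-5p, mir-2376-3p, mir-2397-3p and mir-2483-5p in non-lactation.

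A two-sided Fisher's exact test of the read numbers sets library against library and says nothing of the spread between cows. After Bonferroni adjustment over 883 miRNAs it called 0 of the 29 members, against 28.3% of all miRNAs tested. Most members had too few reads to be called, since 20 of the 29 had at most 10 summed reads. Even mir-2336-3p, with 9 reads in lactation and 0 in non-lactation, had an adjusted p of 0.429 in the exact test. Of 114 listed miRNAs with 20 to 60 summed reads, 28 (24.6%) were called. With Benjamini-Hochberg adjustment over the 883 the exact test called 8 members, against 46.4% of all. Of these, only mir-2419-5p and mir-2484-3p had reads in both libraries. The rest were mir-2299-3p, mir-2313-5p, mir-2336-3p, mir-2408-3p, mir-2478-3p and mir-2481-5p, each with a listed 0 and listed through 1 library alone. The smallest Bonferroni-adjusted p of a member was 0.255, for mir-2419-5p (exact test, unadjusted p = 0.000289). For mir-2484-3p the unadjusted p of the exact test was 0.00573. A listed 0 was taken as 0 in this test, although it may stand for up to 2 reads.

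The reads of all isomiRs gave more to compare, since the most abundant sequence was part of the reads of the better covered members. With isomiR reads, 4 members passed the same Bonferroni threshold in the exact test, against 60.1% of the known miRNAs. mir-2484-3p had 56 isomiR reads in lactation and 152 in non-lactation, 2.03-fold lower (1.49 to 2.81), with an adjusted p of 0.00201 in the exact test. mir-2419-5p had 172 and 143, a ratio of 1.61 (1.28 to 2.02), with an adjusted p of 0.0266 in the exact test. Both kept the order seen in the most abundant sequence.
In mir-2300b-3p, isomiR reads were 26 in lactation and 3 in non-lactation, a ratio of 11.6 (3.54 to 59.7) and an adjusted p of 0.000255 in the exact test. In mir-2313-5p they were 18 and 0, with an adjusted p of 0.000208 in the exact test. That member was listed through lactation alone, which fixed its direction, and the test took its 0 as 0. isomiR sums came to at least 3 reads per kind of isomiR in 530 of 531 library values with any. Rarer ones may thus be missing from these sums, and no minimum fold is given where a sum was 0. The interval and p of mir-2300b-3p, with 5 kinds of isomiRs in lactation and 1 in non-lactation, leave this out, as does the p of mir-2313-5p. The most abundant sequence alone gave 8 and 3 reads for mir-2300b-3p, a ratio of 3.56 (0.854 to 20.8).
Among members without such a call, mir-2387-5p had 47 and 29 isomiR reads, a ratio of 2.16 (1.33 to 3.56), and mir-2443-5p had 38 and 26, a ratio of 1.95 (1.15 to 3.35). mir-2316-5p had 28 and 40, a ratio of 0.934 (0.555 to 1.55). mir-2481-5p had 0 and 16, and mir-2299-3p 0 and 15.

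Fewer isomiRs stood behind the members than behind the other known miRNAs, which had more reads, but at like read number the kinds of isomiRs were close. For 15 of the 29 (51.7%) the most abundant sequence was the whole of the listed isomiR reads, as for 19 of the other 254 (7.48%). Among miRNAs with at most 10 summed reads the counts were 15 of 20 members and 15 of 25 others. With 11 to 100 summed reads, the most abundant sequence held a median of 38.2% of isomiR reads in 8 members and 51.2% in 43 other known miRNAs. The median kinds of isomiRs there, in lactation and non-lactation, were 5 and 3.5 in members and 4 and 3 in the others. With at most 10 summed reads they were 1 and 1 in both groups. The most kinds of isomiRs in a library was 10, for mir-2484-3p in non-lactation, where its most abundant sequence over both libraries made up 28.8% of the isomiR reads. By contrast, mir-2419-5p was mainly 1 sequence, with 72.4% of its isomiR reads.

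In base composition the members differed from the other known miRNAs, all of them or those with few reads. U, the base with which many miRNAs begin, stood first in 6 of 29 members (20.7%), in 128 of the other 254 known miRNAs (50.4%), and in 15 of the 25 others with at most 10 summed reads (60%). C or G stood first in 8 and 7 members, against 36 and 16 of the other 254. The median GC content was 54.5% in the members, 45.5% in the others and 45.0% in the others with at most 10 summed reads. It ran from 33.3% in mir-3596-5p to 76.2% in mir-2316-5p. Length was alike, with 22 nt in 14 members (48.3%) and in 134 others (52.8%), although 24 nt or more was reached by 5 members (17.2%) and 12 others (4.72%). The 3p arm gave 17 members (58.6%) and 109 of the others (42.9%). Among miRNAs with at most 10 summed reads these contrasts were smaller or gone. There 24 nt or more was reached by 2 of 20 members (10%) and 3 of 25 others (12%). The 3p arm gave 14 of those 20 members (70%) and 14 of those 25 others (56%). These shares are descriptions, with no test.

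Each member had its own seed. The 29 members carried 29 different seeds, and 1 of them, mir-2288-3p, shared its seed with another listed miRNA, namely mir-196a-5p and mir-196b-5p, HOX-cluster miRNAs. Among the other known miRNAs, 107 of 254 (42.1%) shared a seed with another known miRNA. The mir-196 sequences were listed at 350 and 568 reads for mir-196a-5p and 347 and 459 for mir-196b-5p in lactation and non-lactation, while mir-2288-3p had 0 and 3.

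Although their seeds differed, 3 members lay within 3 edits of a known miRNA over an alignment of at least 18 bases with free overhangs, and all 3 were within 1 edit of a far more abundant one. Substitutions are given with the base of the member first and positions counted from 1 at its 5′ end. mir-2481-5p differed from mir-221-3p, known for its part in cell proliferation, by G7A in its seed, over 22 aligned bases. mir-2481-5p (hairpin at chr9:97604713-97604776, plus strand) had 0 and 7 reads in lactation and non-lactation, while mir-221-3p had 3253 and 17243, or 272 and 1080 RPM. That was 3.97-fold lower in lactation (3.83 to 4.12). The direction was that of mir-2481-5p, which was listed through non-lactation alone. Over both libraries, 2928 reads of mir-221-3p were listed per read of mir-2481-5p.

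The remaining near pairs belonged to the let-7 family, which is tied to differentiation and is abundant in most adult tissues. mir-2288-3p matched let-7b-5p from its second base on with A1G as the only difference. Its hairpin is listed at chr1:140020296-140020372, minus strand. It had 0 and 3 reads, and let-7b-5p had 700795 and 501558, or 58571 and 31410 RPM, a ratio of 1.86. mir-3596-5p matched let-7a-5p, from the third base of let-7a-5p, in all of its first 20 bases. It had 11 and 20 reads, a ratio of 0.734 (0.318 to 1.61), and let-7a-5p had 1299748 and 1281050, or 108630 and 80226 RPM, a ratio of 1.35. mir-3596-5p was also 1 edit from let-7c-5p, let-7d-5p, let-7e-5p and let-7f-5p. Their ratios were 0.713, 0.831, 0.946 and 0.941. Because the starts are shifted, the seeds of mir-2288-3p and mir-3596-5p were not the let-7 seed. The direction was not shared between mir-2288-3p, listed through non-lactation alone, and let-7b-5p. Nor was it shared between mir-3596-5p, whose interval held 1, and let-7a-5p. How far the reads of mir-2481-5p, mir-2288-3p and mir-3596-5p came from the abundant miRNAs was not tested.

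**Figure D4:**
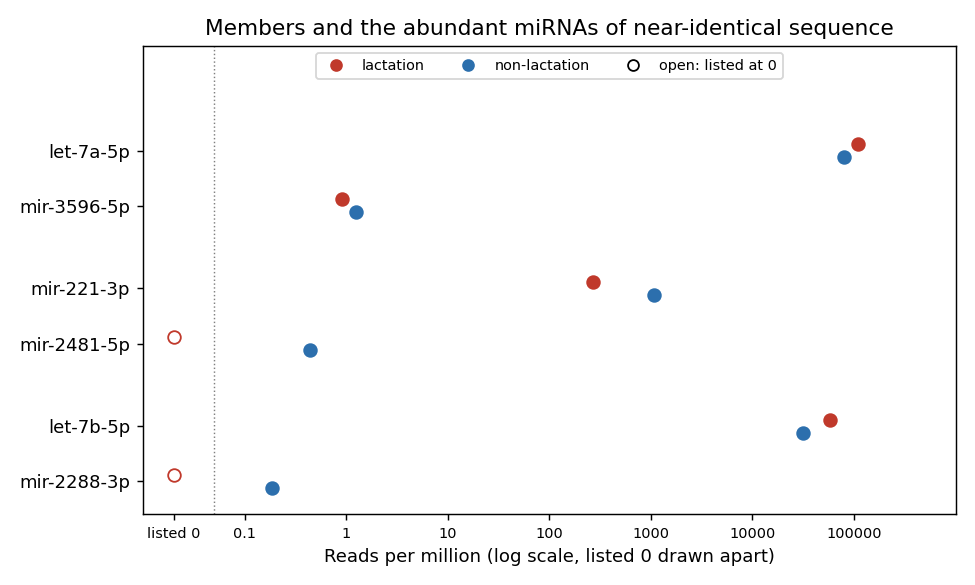
RPM (x axis, log scale, with a listed 0 drawn apart as an open circle) of mir-2288-3p, mir-2481-5p and mir-3596-5p and of the abundant miRNA nearest in sequence to each, 1 point per library. Each abundant miRNA stands far to the right of its partner in both libraries, and mir-221-3p, at 272 and 1080 RPM, is the lowest of the abundant ones.

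The name mir-3596 stood on a sequence other than the one the study's array used for it. The array target for miR-3596 is the exact reverse complement of let-7b-5p over 22 bases, and the listed sequence did not align to it within 4 edits:
miR-3596 array target: aACCACACaaccuacuaccuca
The pre-miRNA of mir-3596 is listed at chr5:123308015-123308097 on the minus strand, and that of let-7b at chr5:123308012-123308092 on the plus strand, so that they overlap by 78 bases on opposite strands. Array targets were found for 6 members. For mir-2419, mir-2478 and mir-2484 the target was the listed sequence. The mir-2288 target began at base 2 of the listed sequence and differed from it by 1 edit where they aligned. That of mir-2481 began at base 4 of the listed sequence, matched it to its end and had a further U.

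mir-2478-3p (hairpin at chr9:28787337-28787413, minus strand) was near listed miRNAs outside the known set. It lay within 2 edits of the predicted CN-126-3p, with U2A and U11C, and within 3 edits of the conserved PC-1260b-5p. mir-2478-3p and CN-126-3p were both listed in lactation alone, with 5 and 7 reads. PC-1260b-5p had 52 reads in lactation and 50 in non-lactation.

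Opposite arms of a hairpin were listed for 3 member pre-miRNAs. The arms of mir-2313 (chr15:32789445-32789518, plus strand) had 6 reads for 5p and 4 for 3p in lactation and none listed in non-lactation. With each arm set at its limit of 3 reads in non-lactation, the sum of 10 reads in lactation gave an RPM at least 2.22-fold higher. This limit, too, leaves out counting error. The arms of mir-2431 (chr5:60834348-60834415, minus strand) had 3 reads for 5p and 5 for 3p in lactation, and 0 and 3 in non-lactation. The predicted CN-193-5p has the same hairpin coordinates as mir-2300b (chr12:31722919-31722992, plus strand). It had 13 reads in lactation and 0 in non-lactation, beside 8 and 3 for mir-2300b-3p. Each arm of the 3 hairpins had more listed reads in lactation, but this order was partly set by how they were found. Both arms of mir-2313, mir-2431-5p and CN-193-5p were listed through their lactation reads alone. The ratios of mir-2431-3p and mir-2300b-3p had intervals that held 1, and no order between the libraries was tested.

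Most members stood alone on the chromosome. Another listed pre-miRNA name lay within 10 kb of 4 of the 27 member pre-miRNAs (14.8%) and of 168 of 231 other known pre-miRNAs (72.7%). This counts a further name on the same hairpin, as found for 1 member and 118 others. Separate hairpins within 10 kb were found for 3 members (11.1%) and 123 others (53.2%). The 4 members were mir-2300b, with the shared hairpin, mir-2382, mir-2443 and mir-3596. The hairpin of mir-2382-3p (3 and 0 reads) lay 188 bases from that of PC-1842-5p, which had 27 and 9 reads, on the same strand of chromosome 25. mir-2443 (chr5:123307467-123307539, plus strand) lay 473 bases from let-7b on the same strand. There mir-2443-5p had 13 and 9 reads, and let-7b-5p had 700795 and 501558. The listed members fell on 15 chromosomes, with 4 pre-miRNAs on chromosome 19, and mir-2409 lay on an unplaced contig.

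RefSeq annotation of ARS-UCD2.0, used for names and neighbouring genes only, held all 27 member pre-miRNAs. It holds 202 miRNA genes numbered from 2288 to 2484, and 26 of them (12.9%) were among the listed members. Of the 27, 20 overlap a protein-coding gene, without regard to strand, which the table does not give. Among the 26 listed in that range this was 19 (73.1%), and among the 176 not listed here 140 (79.5%). MIR2300B overlaps MIR2300A and FLT1, a receptor for vascular endothelial growth factors. MIR2408 overlaps PC, which encodes pyruvate carboxylase, an enzyme of gluconeogenesis. MIR2376 overlaps TAPBP, whose product tapasin helps load peptides on MHC class I, MIR2388 overlaps CUX1, a homeobox transcription factor, and MIR2339 overlaps ELAC2, which trims the 3′ ends of tRNAs. MIR2431 lies in a long non-coding RNA gene between LRP1 and STAT6, and MIR2313 overlaps GRAMD1B, a carrier of cholesterol between membranes.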

How the data were processed

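The members and lists were chosen with earlier results of these data known. The authors made small RNA libraries from MG tissue of 1 lactating and 1 non-lactating Holstein cow, sequenced them on an Illumina Genome Analyzer, and mapped reads with ACGT101-miR to miRBase 17 and the genome build BTA 4.0 after removing reads of mRNA, Rfam and Repbase. The deposited tables give raw read counts of the most abundant sequence of each miRNA, and counts of all isomiRs, with no normalization.

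From these counts, RPM was computed against the clean reads of each library as the study gives them. The 883 unique miRNAs with a value in both libraries entered Fisher's exact test (two-sided, scipy 1.17.1, Bonferroni). All 29 members passed into it, with no filter. isomiR counts were used for the 283 known miRNAs, with the same adjustment factor of 883. Ratios have exact Clopper-Pearson 95% intervals, conditional on the summed reads, for counting error only. A listed 0 was set to 3 reads, and no ratio was formed when both libraries had 3 reads or fewer. Folds were counted from 20 summed reads. Sequences were aligned with edlib 1.3.9.post1. All members were named, and other miRNAs only by position, seed or sequence. Scripts were tested on simulated data. Alternatives included edgeR 4.0.16 and DESeq2 1.42.0 scaling. The authors' array values were not used here.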

Additional observations from a re-analysis of the deposited data

How the results depend on the processing

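No paired analysis was possible because each condition had 1 library. The members near a known miRNA (3) and those with a listed neighbour (4, 3 on the same strand, and 3 with separate hairpins only, a setting chosen after seeing the data) kept their counts to within 1.5 times. The ratio of the summed reads was 1.08 with TMM and 1.06 with DESeq2 scaling, with intervals that held 1, and fell below 1, to 0.971, with no scaling. These scalings moved the median log2 ratio of all miRNAs by -0.26, -0.28 and -0.42. The members whose ratio left out 1 numbered 1 with no scaling and 6 with all isomiRs. The members at least 2-fold different numbered 3 with all isomiRs and 3 at a fold of 1.5. They numbered 0 at a fold of 4, 4 from 10 summed reads and 9 with no minimum. Those 9 include mir-2299-3p, mir-2313-5p, mir-2336-3p, mir-2408-3p and mir-2478-3p, each with a listed 0 set to 3 reads. For these folds and intervals the share over all listed miRNAs was not counted under the alternatives. The counts therefore show only how far the setting moves them. The exact test called 4 members with all isomiRs, against 60.1% of the known miRNAs. It called 8 with Benjamini-Hochberg adjustment, against 46.4% of all miRNAs tested, and only mir-2419-5p and mir-2484-3p of the 8 had reads in both libraries. With at least 10 reads in both libraries, 5 members were listed in both. Of 60 single-member ratios under alternatives, 59 stayed within their own interval, and the exception was mir-2419-5p with no scaling, at 1.21. Most of these intervals were wide, so staying within them says little. mir-2300b-3p stayed within its interval while going from 3.56 to 11.6 with all isomiRs. mir-2316-5p did so while going from 1.14 to 0.940 with DESeq2 scaling. Read depth limits most members: 20 of 29 had at most 10 summed reads.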
